A study of Mus musculus with 4 samples.

Results

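The protease-activated receptors (PARs) are the cell surface receptors through which thrombin, the enzyme that dabigatran inhibits, acts on cells. The family has 4 members in the mouse, PAR1 (F2r), PAR2 (F2rl1), PAR3 (F2rl2) and PAR4 (F2rl3). They were taken by gene symbol from a table of 17780 genes, and all 4 had a row. The question was whether mRNA for these receptors differed in the lung between mice given vehicle, amiodarone, dabigatran or both drugs.

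PARs are G protein-coupled receptors that carry their own ligand. A protease cuts the extracellular N-terminal tail, and the newly exposed end folds back and activates the same molecule as a tethered ligand. PAR1 is the main thrombin receptor of endothelial cells, fibroblasts and smooth muscle. PAR2 is cut by trypsin-like proteases, mast cell tryptase and the tissue factor-factor VIIa complex, and is a poor substrate of thrombin. On mouse platelets PAR3 binds thrombin and acts as a cofactor for the cleavage of PAR4, which sends the signal. In the lung PAR1 is known for endothelial barrier control and for responses of fibroblasts to coagulation proteases.

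RNA was sequenced from the lungs of mice, labelled C57BL/6 and named C57BL/6J in the methods, in 4 treatment groups, with 1 library per group. The methods of the study describe male mice, 6 to 7 weeks old, dosed orally 5 times per week for 4 weeks. The vehicle-treated group received a carboxymethylcellulose suspension, the amiodarone-treated group amiodarone, an anti-arrhythmic agent, at 300 mg per kg, and the dabigatran-treated group dabigatran at 60 mg per kg. The amiodarone + dabigatran-treated group received both drugs at those doses. No genetic modification is named for any group. The labels give 28 days of treatment, whereas the methods place the collection of tissue on day 26. With 1 library per group, no replicate spread could be computed, and no p-value is given. The values compare 4 libraries and not the treatments.

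The part of each receptor that thrombin or another protease acts on is encoded in the second exon. It is shown here because it sets which proteases can cut a receptor and which ligand they expose. The coding strand around the activation site is given for each receptor, from 4 codons before the site to 12 codons after it, with the first 6 codons of the tethered ligand in capitals. The sequences come from GENCODE release M21 on GRCm38. The F2r stretch is at chr13:95604867-95604914 on the minus strand, F2rl1 at chr13:95514223-95514270 on the minus strand, F2rl2 at chr13:95700548-95700595 on the plus strand and F2rl3 at chr8:72762312-72762359 on the plus strand.
F2r: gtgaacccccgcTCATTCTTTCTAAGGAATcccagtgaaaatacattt
F2rl1: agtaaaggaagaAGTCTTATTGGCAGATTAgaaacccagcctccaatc
F2rl2: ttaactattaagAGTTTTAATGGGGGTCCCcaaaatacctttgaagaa
F2rl3: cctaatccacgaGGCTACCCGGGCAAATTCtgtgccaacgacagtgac

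The codon in front of the capitals encodes arginine (cgc, aga or cga) in F2r, F2rl1 and F2rl3 and lysine (aag) in F2rl2, the basic residues after which trypsin-like proteases cut. It is codon 41 of 430 in F2r, 38 of 399 in F2rl1, 37 of 369 in F2rl2 and 59 of 396 in F2rl3. Each gene has 2 exons, and the site lies in exon 2. Among the 30 codons after the site, 9 encode acidic residues in F2r, 4 in F2rl1, 4 in F2rl2 and 3 in F2rl3. An acidic stretch behind the site is known in PAR1 as the part that docks to thrombin.

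The levels are given as FPKM, the fragments counted for each kilobase of a transcript after scaling for depth, so that different genes can be set side by side. In brackets stands the 95% interval that the number of reads allows (exact Poisson), which covers counting error only. F2r stood at 90.4 FPKM (88.0 to 92.9) under vehicle, 110.4 FPKM (107.8 to 113.1) with amiodarone, 99.4 FPKM (96.8 to 102.0) with dabigatran and 112.6 FPKM (110.0 to 115.3) with amiodarone + dabigatran. These levels rest on 5138, 6713, 5727 and 6915 reads. F2r was therefore lowest in the vehicle library, next lowest with dabigatran, and close in the 2 libraries with amiodarone. Its rank among the 17780 genes ran from 625 with both drugs to 773 with vehicle, and in each library at least 95.7% of genes had a lower level.

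F2rl1 stood at 10.6 FPKM (9.68 to 11.5) under vehicle, 10.7 FPKM (9.85 to 11.7) with amiodarone, 10.2 FPKM (9.34 to 11.2) with dabigatran and 11.2 FPKM (10.3 to 12.1) with both drugs, from 503, 546, 493 and 575 reads. The 4 intervals overlap, and the highest library is 1.09 times the lowest. F2rl2 stood at 1.42 FPKM (1.08 to 1.83) under vehicle, 1.11 FPKM (0.824 to 1.46) with amiodarone, 1.12 FPKM (0.826 to 1.48) with dabigatran and 1.51 FPKM (1.17 to 1.91) with both drugs, from 60, 50, 48 and 69 reads. Its levels were lower with either drug alone than with vehicle or with both, by less than the counting intervals. F2rl3 stood at 0.43 FPKM (0.229 to 0.735) under vehicle, 0.22 FPKM (0.0950 to 0.433) with amiodarone, 0.33 FPKM (0.158 to 0.607) with dabigatran and 0.25 FPKM (0.108 to 0.493) with both drugs. It rests on 13, 8, 10 and 8 reads, and differences between its levels were not detectable at this depth.

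**Figure D1:**
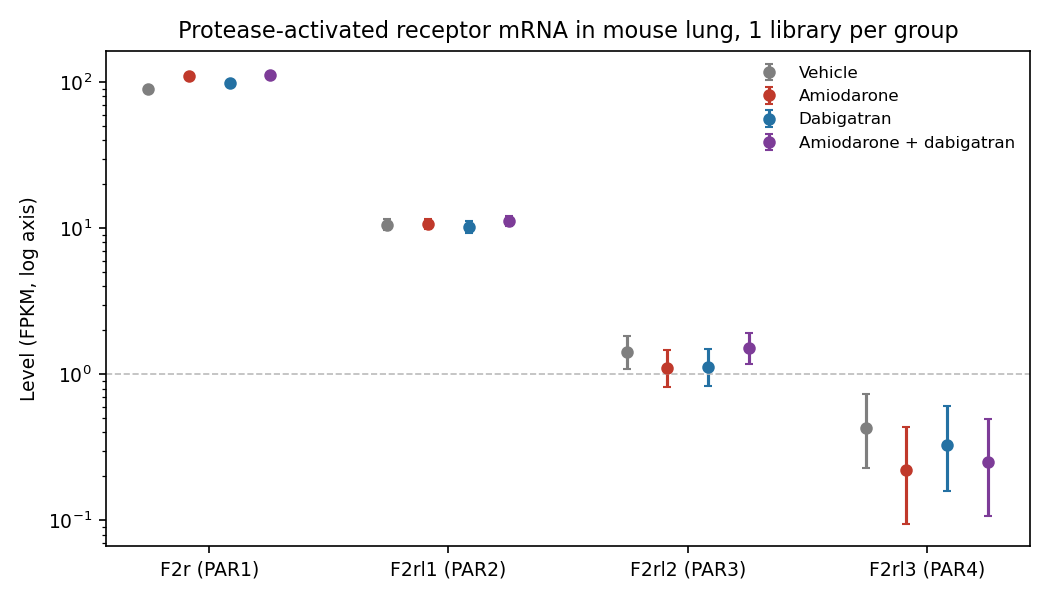
Level of each receptor in the 4 lung libraries, in FPKM on a log axis, with colours for the treatment groups and bars for the exact Poisson 95% counting interval. F2r sits near 100 FPKM, F2rl1 near 10 FPKM and F2rl2 near the dashed line at 1 FPKM, while F2rl3 lies below that line in every library.

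The order of the levels per length was F2r, F2rl1, F2rl2 and F2rl3 in all 4 libraries. F2r was between 8.55 and 10.3 times the level of F2rl1. F2rl1 was between 7.41 and 9.67 times the level of F2rl2, and F2rl2 between 3.30 and 6.04 times that of F2rl3. Each of these neighbours differed beyond counting error in each library, and the lower end of the interval nearest to 1 was 1.70, for F2rl2 over F2rl3 with dabigatran. F2r made up between 87.9% and 90.2% of the summed FPKM of the family, and F2rl3 between 0.180% and 0.418%. The spread across libraries grew down this order of levels after F2rl1. The highest library was 1.245 times the lowest for F2r, 1.09 for F2rl1, 1.36 for F2rl2 and 1.95 for F2rl3.

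Amiodarone was compared with vehicle first. Differences are given as ratios of FPKM with an exact Clopper-Pearson 95% interval from the reads of the libraries compared. The F2r level was 1.22 times as high in the amiodarone library (1.18 to 1.27), so that the difference went beyond counting error. F2rl1 was at 1.01 (0.897 to 1.15), F2rl2 at 0.782 (0.526 to 1.16) and F2rl3 at 0.512 (0.184 to 1.33), all within it. Thus 1 of the 3 receptors that reached 1 FPKM in either library was higher beyond counting error and none was lower, where 19.6% of the 13402 genes tested in the same way were higher and 30.1% lower. None of the 3 was past 1.5-fold, a size that 5.49% of genes reached upward and 7.22% downward. A ratio higher than that of F2r was found in 12.7% of genes. In whole lung, a change in the number of cells that express a receptor and a change in its mRNA per cell cannot be told apart.

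With dabigatran alone, F2r was 1.10 times its vehicle level (1.06 to 1.14), again beyond counting error. It was the 1 receptor of 3 that was, where 15.2% of 13373 genes were higher and 13.4% lower. In this comparison 20.2% of genes had a higher ratio than F2r. F2rl1 was at 0.966 (0.851 to 1.10), F2rl2 at 0.789 (0.528 to 1.17) and F2rl3 at 0.767 (0.301 to 1.89) of their vehicle levels, within counting error. None of the 3 receptors with at least 1 FPKM was past 1.5-fold, against 1.45% of genes upward and 1.52% downward. The vehicle library serves in both comparisons, so they are not independent of each other.

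Dabigatran on top of amiodarone left F2r within counting error of amiodarone alone, at a ratio of 1.02 (0.986 to 1.06), or 0.993 after the libraries were brought to a common median ratio. The interval thus bounds the F2r ratio between these libraries to at most 1.06 and at least 0.986 by counting error. F2rl1 was at 1.04 (0.926 to 1.17), F2rl2 at 1.36 (0.932 to 1.999) and F2rl3 at 1.14 (0.372 to 3.47). None of the 3 receptors with at least 1 FPKM went beyond counting error in this comparison, in which 21.2% of 13261 genes were higher and 15.0% lower. None was past 1.5-fold, against 2.46% of genes upward and 2.07% downward. A ratio higher than that of F2rl2 was found in 4.91% of genes.

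Amiodarone on top of dabigatran gave an F2r level 1.13 times that of dabigatran alone (1.09 to 1.17), beyond counting error. F2rl1 was at 1.09 (0.969 to 1.24), F2rl2 at 1.35 (0.919 to 1.99) and F2rl3 at 0.758 (0.260 to 2.13), within counting error. Here 19.5% of 13379 genes were higher beyond counting error and 23.5% lower, and none of the 3 receptors was past 1.5-fold, against 4.43% of genes upward and 4.39% downward. Against vehicle, the combination had an F2r level 1.245 times as high (1.201 to 1.29), beyond counting error and with 10.7% of genes above it. The other receptors were within counting error of vehicle, F2rl1 at 1.06 (0.937 to 1.19), F2rl2 at 1.06 (0.741 to 1.53) and F2rl3 at 0.581 (0.209 to 1.51). None of the 3 with at least 1 FPKM was past 1.5-fold. In that comparison 20.0% of 13390 genes were higher beyond counting error and 22.6% lower, while 4.62% were past 1.5-fold upward and 4.69% downward.

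**Figure D2:**
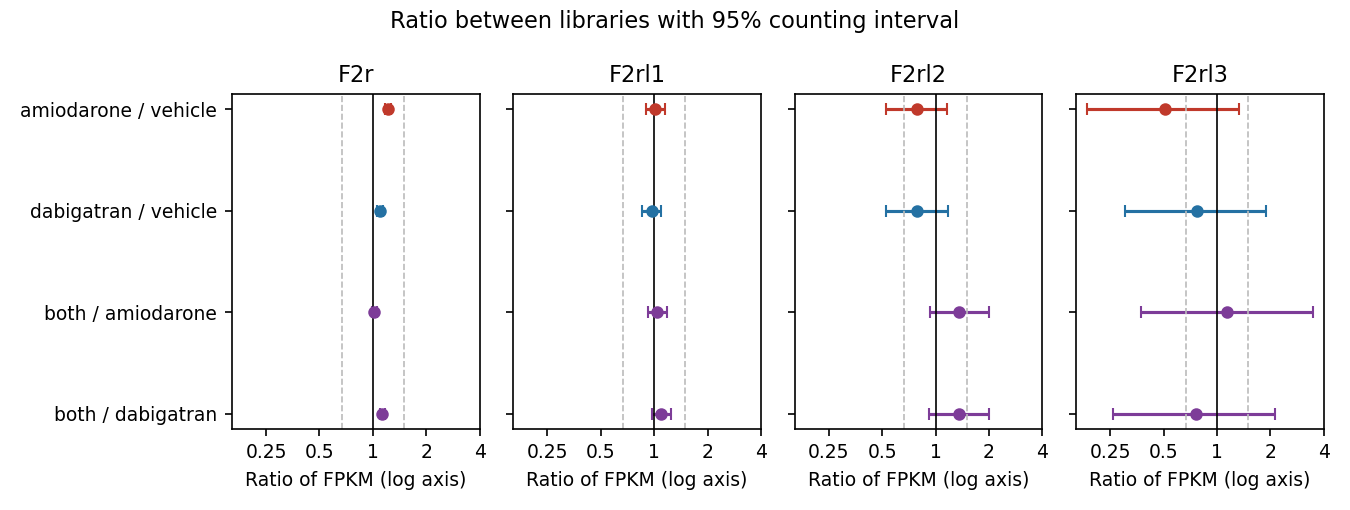
Ratio of FPKM between libraries on a log axis, with the exact 95% counting interval as a bar, for each receptor and 4 comparisons. The solid line marks equal levels and the dashed lines mark 1.5-fold. The F2r intervals are narrow and clear of equality in 3 of its 4 rows, F2rl1 sits on the line, and the bars of F2rl2 and F2rl3 span it.

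The size of the amiodarone ratio with and without dabigatran was set side by side as a ratio of ratios, with an interval from the reads of all 4 libraries by a normal approximation of the log ratio. For F2r it was 0.928 (0.882 to 0.976), since amiodarone went with a ratio of 1.22 without dabigatran and 1.13 with it. For F2rl2 it was 1.72 (1.02 to 2.92), from ratios of 0.782 and 1.35, and the lower end of its interval is close to equality. After the libraries were brought to a common median ratio, these F2rl2 ratios were 0.81 and 1.36, nearer to each other. No interval was computed for the rescaled values, so whether it would hold equality is not known. F2rl1 was at 1.08 (0.910 to 1.28) and F2rl3 at 1.48 (0.411 to 5.33). Of 13514 genes with at least 1 FPKM in any library and reads in all of them, 20.1% were above and 15.7% below equality by the same rule, so values outside their counting interval were common among all genes.

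F2r, F2rl1 and F2rl2 lie in a row on chromosome 13, and F2rl3 lies on chromosome 8. In GRCm38.p6 F2rl1 runs from chr13:95511718-95525240, F2r from chr13:95601780-95618466 and F2rl2 from chr13:95696920-95702768, together over 191051 bases. The gaps between them are 76539 and 78453 bases. F2rl3 runs from chr8:72761659-72763898. Despite their closeness the 3 genes of the row stood at levels far apart, as given above. The amiodarone ratio was 1.01 for F2rl1 and 0.782 for F2rl2, beside 1.22 for F2r.

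F2rl2 lies inside the span of Iqgap2, a scaffold protein of the IQGAP family, on the opposite strand and without overlap with any of its 36 exons. Iqgap2 stood at 6.39 FPKM under vehicle, 7.57 with amiodarone, 5.58 with dabigatran and 6.17 with both drugs. Its ratio with amiodarone was 1.18 (1.05 to 1.34) and that of the combination against amiodarone 0.815 (0.723 to 0.918). Both were opposite in direction to the F2rl2 ratios, as was the combination against vehicle, at 0.966 (0.851 to 1.10). With dabigatran against vehicle Iqgap2 was at 0.873 (0.766 to 0.995) and with both drugs against dabigatran at 1.11 (0.972 to 1.26). Those went in the same direction as F2rl2, whose ratios were all within counting error. Whether the counting used strand is not given in the sources used here, so reads of unspliced Iqgap2 RNA over F2rl2 cannot be told apart from F2rl2 reads.

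Other genes within 200 kb of the row were S100z, listed at 0 in the vehicle and combination libraries, Zbed3 and Aggf1. Zbed3 ran from 13.9 to 16.1 FPKM, and Aggf1, which encodes an angiogenic factor, from 13.4 to 14.5 FPKM. Near F2rl3 lie Smim7, Tmem38a, Nwd1 and Sin3b. Tmem38a, which encodes an intracellular cation channel, stood at 17.6 FPKM under vehicle, 10.4 with amiodarone, 14.8 with dabigatran and 11.5 with both drugs. Its amiodarone ratio of 0.593 (0.522 to 0.674) points the same way as the F2rl3 ratio, which rests on far fewer reads. Sin3b, closest to F2rl3, ran from 29.4 to 32.8 FPKM.

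The proteases that cut the receptors were taken next, as lists written for their known roles. Of 11 coagulation and fibrinolytic proteases, 5 had at least 1 FPKM in the amiodarone or the vehicle library. With amiodarone 3 of these were at least 1.5-fold higher and 1 lower, where the same size was reached by 5.49% and 7.22% of genes. The lower gene, Proc, reached 1 FPKM with vehicle only, so it entered the count through the library where it was higher. The median difference of these 5 was 0.97 on the log2(FPKM + 1) scale, against -0.05 over all genes. F7, which encodes the protease that acts with tissue factor on PAR2, stood at 2.52 FPKM under vehicle, 11.3 with amiodarone, 2.99 with dabigatran and 12.5 with both drugs. Its ratio was 4.47 (3.49 to 5.78) with amiodarone and 1.11 (0.962 to 1.28) for both drugs against amiodarone. F10, for factor X, stood at 1.21, 4.58, 1.36 and 5.94 FPKM in the same order, a ratio of 3.79 (2.81 to 5.17) with amiodarone. F7 and F10 were thus high in both libraries with amiodarone and low in both without it. Plat, for tissue plasminogen activator, stood at 15.2 FPKM under vehicle, 30.8 with amiodarone, 18.2 with dabigatran and 22.8 with both drugs.

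F2, the gene for prothrombin, was below 1 FPKM in all 4 libraries. It stood at 0.52 FPKM under vehicle, 0.27 with amiodarone, 0.43 with dabigatran and 0.16 with both drugs, and its amiodarone ratio of 0.519 (0.214 to 1.19) was within counting error. Prothrombin is known to be made in the liver and to reach tissues with the blood, and the thrombin present in the lung was not measured here. Proc, for the anticoagulant protease that can cut PAR1 at another site, stood at 1.06, 0.49, 0.60 and 0.66 FPKM, with an amiodarone ratio of 0.462 (0.226 to 0.903). F2 and Proc were named for their roles after their values were seen.

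Of 21 other proteases reported to cut PARs, 17 had at least 1 FPKM with amiodarone or vehicle. With amiodarone 5 of them were at least 1.5-fold higher and none was lower, beside 5.49% and 7.22% of all genes, and 8 were higher beyond counting error and 3 lower, beside 19.6% and 30.1%. Of the 5, 2 were below 1 FPKM with vehicle and entered the count only through the amiodarone library. Their median difference was 0.16 on the log2(FPKM + 1) scale. Ctss, for cathepsin S, a protease of macrophages and other myeloid cells that activates PAR2, stood at 77.1 FPKM under vehicle, 226.9 with amiodarone, 80.3 with dabigatran and 205.8 with both drugs. Its amiodarone ratio was 2.94 (2.79 to 3.11). Mmp8, for the collagenase of neutrophils, stood at 1.5, 9.23, 1.06 and 7.88 FPKM, and Mmp9, for a gelatinase of myeloid cells, at 4.28, 9.36, 3.68 and 9.83 FPKM. Like F7 and F10, these 3 genes were high in the 2 libraries with amiodarone only. Mmp2, for a gelatinase made by fibroblasts, went the other way, at 44.2, 31.3, 57.0 and 27.3 FPKM. Those 2, named after their values were seen, were Gzmk, for granzyme K, at 0.08, 1.67, 1.53 and 0.43 FPKM, and Prtn3, for proteinase 3 of neutrophils, at 0.56, 1.34, 0.43 and 1.67 FPKM. Gzma, for granzyme A of cytotoxic lymphocytes, was at 24.6, 34.2, 44.8 and 39.9 FPKM.

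The higher protease levels with amiodarone stood beside markers of myeloid cells. The summed level of 6 neutrophil markers was 79.5 FPKM under vehicle, 474.1 with amiodarone, 57.2 with dabigatran and 357.6 with both drugs. One of these markers is Mmp8 itself. The summed level of 6 macrophage markers was 81.6, 145.1, 84.7 and 174.9 FPKM. With amiodarone, 4 of 6 macrophage markers were at least 1.5-fold higher than with vehicle, beside 5.49% of all genes. So were the 5 neutrophil markers that reached 1 FPKM in either library, of which 1, Ly6g, did so only with amiodarone. The sixth, Camp, was below 1 FPKM in every library. No marker of either list was at 0 in any library. The part of these cells in the protease levels was not tested.

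The cofactors listed here take part in the binding or action of coagulation proteases, and not all of them bring a protease to the receptors. F3, for tissue factor, stood at 40.7 FPKM under vehicle, 53.6 with amiodarone, 40.0 with dabigatran and 46.1 with both drugs, an amiodarone ratio of 1.32 (1.22 to 1.41). Thbd, for thrombomodulin, the endothelial receptor that diverts thrombin from the PARs toward protein C, stood at 198.0 FPKM under vehicle, 242.7 with amiodarone, 226.9 with dabigatran and 202.8 with both drugs. Both cofactors were higher with amiodarone than with vehicle beyond counting error. With both drugs Thbd was 0.835 (0.817 to 0.854) and F3 0.861 (0.804 to 0.921) of the amiodarone level, where the F2r ratio was 1.02 (0.986 to 1.06). F3 and Thbd were named for their roles after their values were seen. Procr, for the endothelial protein C receptor, stood at 5.19, 2.67, 3.22 and 3.17 FPKM, lowest with amiodarone and highest with vehicle.

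Of the 8 cofactors, 7 had at least 1 FPKM, and with amiodarone none was 1.5-fold higher and 3 were lower, beside 5.49% and 7.22% of genes. With both drugs against amiodarone, 4 of 7 were at least 1.5-fold higher and none was lower, where 2.46% and 2.07% of genes were. The platelet glycoproteins of the von Willebrand factor receptor, to which thrombin also binds, are in this list and also among the platelet markers. Gp9 stood at 10.03 FPKM under vehicle, 5.73 with amiodarone, 11.7 with dabigatran and 17.5 with both drugs, a ratio of 3.06 (2.43 to 3.87) for both drugs against amiodarone. Gp1bb stood at 5.17, 3.66, 4.59 and 8.96 FPKM, and Gp1ba, of the same receptor, at 2.0, 1.51, 2.62 and 2.76 FPKM. F5, for factor V, was lowest with amiodarone and highest with both drugs, at 1.72, 1.11, 1.81 and 2.8 FPKM. Gp1ba and F5 were named after their values were seen.

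Platelets carry PAR3 and PAR4 in the mouse, and platelet markers differed between the libraries. The summed level of 10 platelet markers was 101.3 FPKM under vehicle, 62.1 with amiodarone, 107.3 with dabigatran and 145.2 with both drugs. With amiodarone 9 of 10 were lower than with vehicle beyond counting error and 5 were at least 1.5-fold lower, beside 30.1% and 7.22% of all genes. With both drugs all 10 were at least 1.5-fold higher than with amiodarone, beside 2.46% of genes. In each of these comparisons 1 of the markers counted past 1.5-fold was below 1 FPKM with amiodarone. None of the 10 was at 0 in any library. F2rl2 was, like these markers, lowest with amiodarone and highest with both drugs, although with dabigatran it was near its amiodarone level where the platelet sum was not. The F2rl2 levels with amiodarone and with dabigatran were 1.11 and 1.12 FPKM. All F2rl2 ratios were within counting error, so its order of libraries is not established. F2rl3, at 8 reads in both libraries with amiodarone, could not be set against the platelet markers. The part of platelets in the F2rl2 values was not tested.

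F2r is expressed by endothelial cells and fibroblasts. The summed level of 8 endothelial markers was 1220 FPKM under vehicle, 1303 with amiodarone, 1400 with dabigatran and 1150 with both drugs. Against vehicle, 6 of 8 were higher beyond counting error and 2 lower with amiodarone, beside 19.6% and 30.1% of all genes. With dabigatran 7 of 8 were higher and none was lower, beside 15.2% and 13.4%. With both drugs against amiodarone 6 of 8 were lower and none was higher, beside 15.0% and 21.2%. F2r stayed at its higher level in the combination library, where the endothelial sum was at its lowest. The summed level of 7 fibroblast markers was 443.0, 405.4, 480.6 and 435.4 FPKM, and that of 5 smooth muscle markers 553.6, 348.0, 524.0 and 377.9 FPKM. The smooth muscle sum was lower in both libraries with amiodarone, in which F2r was higher. None of the markers of these 3 lists was at 0 in any library, and their part in the F2r values was not tested.

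**Figure D3:**
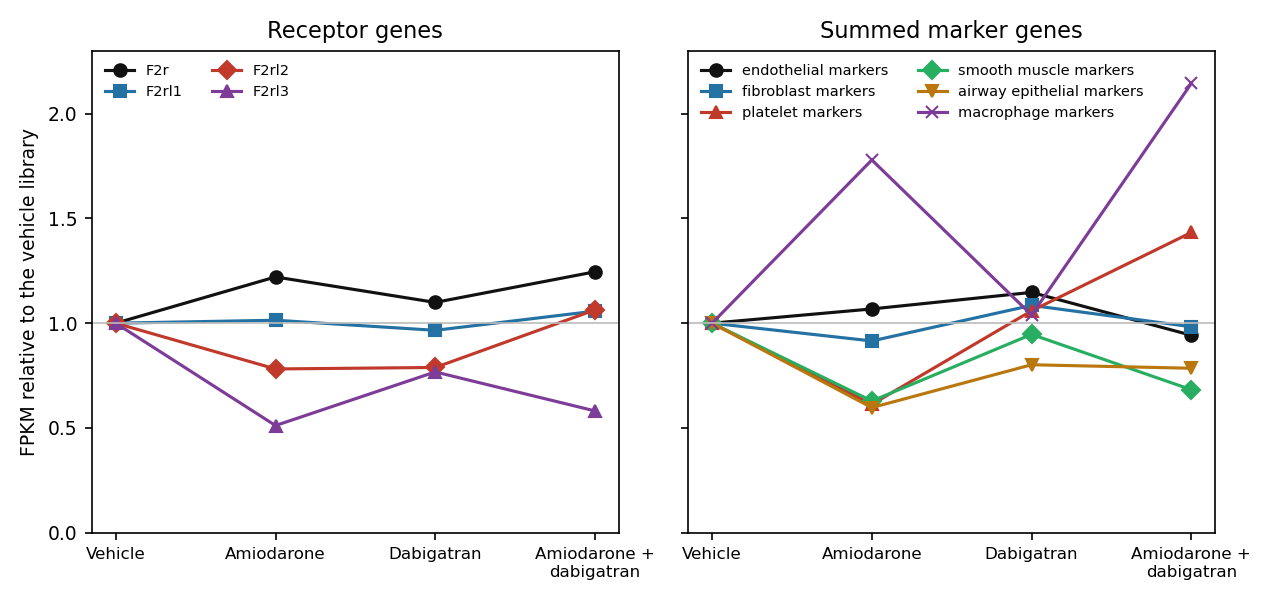
FPKM of each receptor (left) and summed FPKM of marker lists (right) in each library relative to the vehicle library, with lines that only join the points of a gene or list. F2r is at 1.22 with amiodarone and 1.245 with both drugs, F2rl1 stays near 1, and the platelet sum falls to 0.613 with amiodarone and stands at 1.43 with both drugs.

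The tissue label was checked against its markers. The summed level of 8 alveolar epithelial markers, surfactant protein genes among them, ran from 27567 to 29527 FPKM. That of 6 airway epithelial markers ran from 76620 FPKM with amiodarone to 128301 FPKM under vehicle. Nearly all of it was Scgb1a1, at 73994 FPKM with amiodarone and 124168 FPKM under vehicle. Of the 4 markers with at least 1 FPKM, the amiodarone ratio was 0.596 for Scgb1a1 and 0.630 for Cyp2f2. It was 0.853 for Foxj1, named after its values were seen, and 0.851 for Muc5b, so the sum does not stand for all airway cells. PAR2 is known in airway epithelium, and F2rl1 stood within counting error between the vehicle and amiodarone libraries. Mast cells hold tryptase, an activator of PAR2, and the sum of 6 mast cell markers ran from 34.2 to 43.0 FPKM. Nearly all of that sum was Kit, named after its values were seen, at 40.2 FPKM under vehicle and 35.0 with amiodarone. No other marker of that list exceeded 1.6 FPKM in any library, so the sum says little about mast cells. The sum of 6 T and NK cell markers ran from 32.5 FPKM under vehicle to 45.7 with dabigatran, where Gzma was also highest. Most of that difference was Nkg7, at 15.0 FPKM under vehicle and 27.1 with dabigatran. Between those libraries 5 of the 6 markers were within counting error. The total of estimated reads ran from 17498486 to 18903401 per library, and the sum of FPKM over all genes was 592526 with vehicle and 554613 with amiodarone.

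The inhibitors of the proteases were taken next. Of 11 inhibitors 8 had at least 1 FPKM with amiodarone or vehicle, of which 1 was at least 1.5-fold higher and 1 lower with amiodarone, beside 5.49% and 7.22% of all genes. Beyond counting error 1 was higher and 4 were lower, beside 19.6% and 30.1%. The genes past 1.5-fold were Serpind1, for the thrombin inhibitor heparin cofactor II, at 0.98, 1.7, 0.98 and 1.08 FPKM in the order vehicle, amiodarone, dabigatran and both drugs, and Tfpi2, at 1.18, 0.59, 1.05 and 0.62 FPKM. Both were named after their values were seen, and each was below 1 FPKM in the library where it was lower.

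Genes downstream of the receptors followed. PARs couple to Gq/11, G12/13 and Gi proteins. None of the 11 G protein alpha subunits was at least 1.5-fold higher with amiodarone and 1 was lower, Gnaz, named after its values were seen, at 2.1, 1.23, 1.92 and 1.54 FPKM, where 5.49% and 7.22% of all genes reached that size. Gnai2, for a Gi subunit and with the most reads of the list, stood at 408.1 FPKM under vehicle, 420.4 with amiodarone, 399.9 with dabigatran and 405.4 with both drugs. None of the 18 effectors, which include phospholipase C beta and protein kinase C genes, was past 1.5-fold in any of the 4 comparisons with a drug added, for which the shares of all genes are given above. Beyond counting error 9 were higher and 5 lower with amiodarone, beside 19.6% and 30.1% of all genes. Rhoa, for the small GTPase behind contraction of endothelial cells, stood at 301.6, 309.9, 321.0 and 336.9 FPKM. Of 18 genes of receptor desensitisation and trafficking, 2 were at least 1.5-fold higher and 1 lower with amiodarone, beside 5.49% and 7.22%, counts of 1 or 2 genes from which nothing is read. Rgs2, for a protein that turns off Gq signals, stood at 25.2 FPKM under vehicle, 14.8 with amiodarone, 23.2 with dabigatran and 14.6 with both drugs, low in both libraries with amiodarone. The genes that were higher, named after their values were seen, were Rgs1 at 0.76, 2.22, 0.71 and 1.99 FPKM and Rgs16 at 0.40, 1.12, 0.69 and 0.53 FPKM, both for proteins of the same family. Both were below 1 FPKM with vehicle and entered the count only through the amiodarone library.

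Genes that thrombin is known to induce formed the last list, with 24 genes. Of 23 with at least 1 FPKM with amiodarone or vehicle, 4 were at least 1.5-fold higher and 4 lower with amiodarone, beside 5.49% and 7.22% of all genes, and 2 of the 4 higher genes were below 1 FPKM with vehicle. Their median difference was 0.05 on the log2(FPKM + 1) scale. With dabigatran against vehicle none of 21 was past 1.5-fold, beside 1.45% and 1.52% of all genes, while 9 were higher beyond counting error and 1 was lower, beside 15.2% and 13.4%. With both drugs against amiodarone none of 23 was at least 1.5-fold higher and 7 were lower, beside 2.46% and 2.07% of genes, and 2 of the 7 were below 1 FPKM with both drugs. The median difference was -0.27, against 0.03 over all genes. With both drugs against dabigatran 1 of 21 was at least 1.5-fold higher and 6 were lower, beside 4.43% and 4.39% of genes, with a median of -0.30 against -0.01 over all genes. These 2 comparisons share the combination library. In that library the list had a lower summed level, 741.8 FPKM, than in the other libraries, where it ran from 872.0 to 1200.3 FPKM.

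Ccn1, for a matrix protein induced through PAR1, stood at 189.1 FPKM under vehicle, 89.9 with amiodarone, 262.8 with dabigatran and 54.8 with both drugs. Ccn2, for connective tissue growth factor, stood at 75.8, 89.2, 81.9 and 55.6 FPKM, with a ratio of 0.623 (0.592 to 0.655) for both drugs against amiodarone. The nuclear receptor gene Nr4a1, an immediate early gene, stood at 81.4, 35.5, 115.1 and 15.0 FPKM. Egr1, another immediate early gene, stood at 75.0, 35.5, 81.9 and 17.7 FPKM. Ccn1, Nr4a1 and Egr1 thus had the same order of libraries, with the highest level with dabigatran and the lowest with both drugs. Ptgs2, for cyclooxygenase-2, stood at 3.82, 5.15, 3.68 and 2.89 FPKM, lowest with both drugs. Areg, for the growth factor amphiregulin, was highest with amiodarone, at 5.27, 8.93, 4.96 and 6.38 FPKM. Ccl2 and Cxcl1, for chemokines, and Sele, for the adhesion molecule E-selectin, were named after their values were seen as the other genes at least 1.5-fold higher with amiodarone, and none of them exceeded 2.64 FPKM in any library. The amiodarone ratios of Ccl2, 1.73 (0.976 to 3.14), and Cxcl1, 1.98 (0.855 to 4.98), were within counting error. That of Sele, 3.16 (1.90 to 5.48), was beyond it. Cxcl1 was also counted as lower with both drugs against amiodarone, at 0.469 (0.187 to 1.09), again within counting error. Pdgfa, for a platelet-derived growth factor chain, was lower in both libraries with amiodarone, at 94.3, 49.8, 89.5 and 57.6 FPKM. Itgb6, for the integrin chain through which PAR1 is known to activate transforming growth factor beta, stood at 11.2, 7.45, 13.4 and 8.08 FPKM. Several of these genes are known to answer to many other stimuli.

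**Figure D4:**
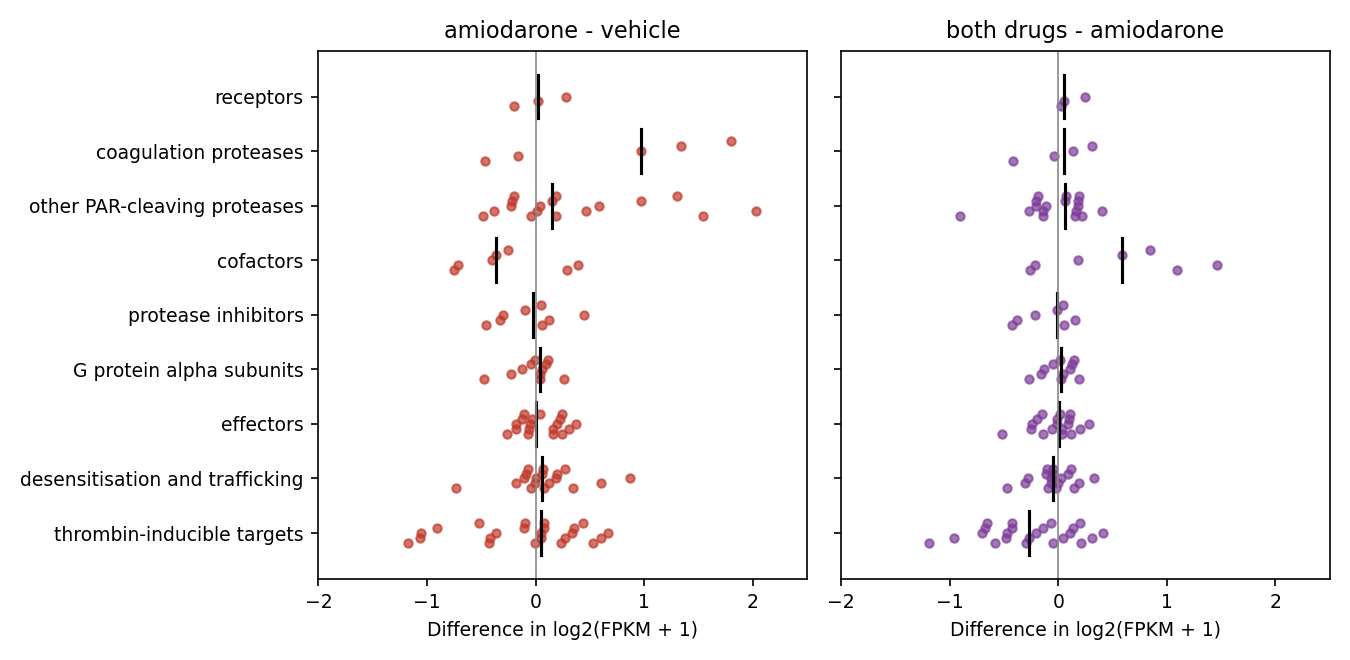
Difference in log2(FPKM + 1) for each gene of 9 lists, amiodarone minus vehicle (left) and both drugs minus amiodarone (right), for genes that reached 1 FPKM in either library. Points are genes and black bars are list medians. The coagulation proteases have a median of 0.97 on the left, and the thrombin-inducible targets a median of -0.27 on the right. The receptor medians are near 0, at 0.02 on the left and 0.06 on the right. Single receptors run from -0.20 (F2rl2) to 0.28 (F2r) on the left and from 0.03 (F2r) to 0.25 (F2rl2) on the right.

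The genes most like each receptor in pattern were found by the Euclidean distance between centred log2(FPKM + 1) values over the 4 libraries, among genes that averaged 1 FPKM or more. For F2r they were Bak1, Pdcd10 and Fam214b, at distances from 0.0234 to 0.0256. Bak1, for a pro-apoptotic protein, stood at 24.2 FPKM under vehicle, 30.3 with amiodarone, 26.9 with dabigatran and 30.8 with both drugs, the same order of libraries as F2r. In all, 211 of 13182 genes (1.60%) lay within a distance of 0.1 of F2r. For F2rl1 the nearest were Ogg1, Uqcrq and Zfp212, and 1435 genes (10.9%) lay within 0.1, as many genes are flat over the 4 libraries. For F2rl2 they were F8a, Mif and Rpl31, with 266 genes (2.02%) within 0.1. For F2rl3 they were Nop58, Zfp39 and Zfp318, with 880 of 13183 genes (6.68%) within 0.1. F2rl3 rests on 8 to 13 reads per library, and differences between its levels were not detectable. The 1 added to each FPKM also draws its low values together, so nothing is read from its nearest genes. With 4 libraries such likeness is a description of the pattern only.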

How the data were processed

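Poly(A)-selected lung RNA was sequenced by DNBseq, with 1 library per group. Per the labels and methods, the authors mapped reads to GRCm38.p6 with HISAT 2.0.4 and Bowtie2 2.2.5 and used RSEM 1.2.8 to estimate expression. The deposited estimated counts of reads per gene are expected counts, so they need not be whole, and they were rounded for intervals. The deposited normalized values are read as FPKM, because reads per unit of value differ between amiodarone and vehicle by 1.07, as do the total reads. Normalization to FPKM fixes depth and length but not composition. Another 8 columns, the authors' means over pairs of libraries, were not used.

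Groups came from the labels. Ratios of FPKM were taken without a pseudocount, with exact Clopper-Pearson 95% intervals from reads, and list differences as log2(FPKM + 1), which understates low genes. The background is every gene that reached 1 FPKM in either library. The floor of a count of 0 is 3 reads. Sequenced fragments are not independent molecules, so intervals cover counting error only. The study ran no test on these libraries, and none was run here. RefSeq coordinates for GRCm38.p6 were found for 17669 identifiers (99.4%). Sequences came from GENCODE M21.

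The members and lists were chosen with earlier results of these data known. Named beside the receptors were list members with at least 5 FPKM in any library and a 1.5-fold ratio in any comparison (or, where none passed, members with the most reads), genes within 200 kb, and the 3 genes nearest in pattern. Genes outside this rule are marked in the text as named after their values were seen. A gene that meets it was left out. Alternatives were pseudocounts of 1 and 0.1, rescaling by the median ratio over 12728 genes, reads scaled to library totals, a lower fold threshold (25% above equality), 2-fold or the counting interval in place of 1.5-fold, and other filters. Python 3.11.15, pandas 2.3.3 and SciPy 1.17.1 were used, and the scripts were tested on simulated data.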

Additional observations from a re-analysis of the deposited data

Results flagged for a closer look

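For 3 receptors a drug went with opposite directions depending on the other drug, by the single library in each group. The difference was not tested. Each single ratio behind these directions was within counting error, so the directions themselves are not established. The interval of the ratio of ratios held equality for F2rl1 and F2rl3. For F2rl2 its lower end, 1.02, was close to equality, and no interval was computed after rescaling. For F2rl2, amiodarone went with a lower level without dabigatran and a higher level with it, and dabigatran with a lower level without amiodarone and a higher level with it; both give the same ratio of ratios, 1.72, from 48 to 69 reads per library. For F2rl1 the dabigatran ratio was 0.966 without amiodarone and 1.04 with it, a ratio of ratios of 1.08. For F2rl3 it was 0.767 and 1.14, a ratio of ratios of 1.48, from 8 to 13 reads per library. With reads scaled to library totals the second F2rl3 ratio was 0.991, so that the directions were no longer opposite.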

How the results depend on the processing

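All 80 receptor ratios recomputed with another pseudocount or scaling stayed inside the counting interval of the value reported. A pseudocount can only draw a ratio toward equality, so where the interval held equality the ratio could not leave it. At the level of F2r the pseudocounts change little, and reads scaled to library totals nearly repeat FPKM. The count of 80 therefore says little about robustness. No receptor with at least 1 FPKM was past 1.5-fold, and the same held at 2-fold, with a minimum of 5 FPKM and after rescaling by the median ratio. At a lower fold threshold (25% above equality, and its inverse below) the count was 1, F2rl2, in amiodarone against vehicle and dabigatran against vehicle (lower) and in both drugs against either drug (higher). By the counting interval it was 1, F2r (higher), in each comparison but both drugs against amiodarone. With no filter on low values it was 1, F2rl3 (lower), with amiodarone and with both drugs against vehicle. These shifts follow from the thresholds themselves. No paired analysis was possible because each group has 1 library. Depth limits F2rl3, at 8 to 13 reads, and F2rl2, at 48 to 69 reads, while for F2r the lack of replicates is the limit.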
